A study of Mus musculus with 6 samples.

Results

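The Slc25 family is the main set of carrier proteins of the mitochondrial inner membrane. Members were all genes whose symbol is Slc25a followed by a number, which gave 45 of the 17680 gene symbols in the count tables. Of these, 42 passed the filter on low counts and were tested, among 14219 genes tested in all. The 3 others, Slc25a2, Slc25a18 and Slc25a31, had too few counts.

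RNA was sequenced from kidneys of wild-type C57BL/6 mice, 6 to 8 weeks old. The LPS group was 3 mice given lipopolysaccharide, a component of the outer membrane of Gram-negative bacteria, by intraperitoneal injection, and their kidneys were taken 24 h later to model septic kidney injury. The Control group was 3 mice given phosphate-buffered saline (PBS) by the same route. The question was which transcripts differ between injured and normal kidneys.

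Slc25 carriers are built from repeats of a common fold. Most move a small molecule, such as a nucleotide, phosphate, a carboxylate, an amino acid or a cofactor, between the cytosol and the mitochondrial matrix. The proteins are encoded in the nucleus, and most are inserted into the inner membrane after synthesis. The proximal tubule of the kidney is rich in mitochondria, which supply the ATP for solute reabsorption and carry out fatty acid oxidation and ammonia production from glutamine and glutamate.

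Levels of different genes are compared here in FPKM, counts scaled to gene length and to the library's total, and each difference between groups is a log2 fold change of LPS against Control from the counts, with its standard error (SE). Expression of 1 gene between groups is given in FPKM or in CPM, counts scaled to the library total and the normalization factors of the fit. Adjusted p-values are Benjamini-Hochberg values of edgeR's quasi-likelihood test over all 14219 genes, with a threshold of 0.05.

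Library totals lay between 29097558 and 33454344 counts. Defining markers of the proximal tubule, loop of Henle and collecting duct were present in all libraries. Distal and collecting duct markers (7 of 8 lower) summed to 881.6 to 1341 CPM in LPS and 1770.0 to 1869 CPM in Control kidneys. T, NK and B cell markers (3 of 4 tested lower) summed to 1.36 to 3.07 and 4.70 to 13.8 CPM. All 10 proximal tubule markers were lower in LPS kidneys, and their summed level was 2083 to 2233 CPM there against 13860 to 15550 CPM in Control kidneys. Of 8 neutrophil markers, 5 were tested and all 5 were higher, and the list summed to 64.8 to 90.5 against 2.83 to 3.42 CPM. Ly6g, Mpo and Elane had too few counts to test. In LPS replicates 1, 2 and 3 Ly6g had 1, 3 and 0 counts, Mpo 0, 4 and 2 and Elane 4, 0 and 0. In Control replicates Ly6g had 1, 0 and 1 counts, and Mpo and Elane had 0. Loop of Henle markers (3 of 4 lower) summed to 4701 to 4926 CPM in LPS and 8149 to 8659 CPM in Control kidneys, and monocyte and macrophage markers (4 of 8 higher, 2 lower) to 189.5 to 210.2 and 127 to 199.9 CPM. LPS replicate 2 stood apart, with 35860 summed CPM of 6 seminal vesicle genes against at most 45.3 CPM in each other library, and the counts of changed carriers are therefore also given without it.

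Carriers changed in both directions in LPS kidneys: 8 of the 42 tested members rose and 15 fell, and 19 did not pass the test. The 4 that rose by at least 2-fold were Slc25a24 and Slc25a25, which exchange ATP-Mg for phosphate, the glutamate carrier Slc25a22, and the carnitine-acylcarnitine carrier Slc25a20. The 1 that fell by at least 2-fold was Slc25a21, which carries oxoadipate and oxoglutarate. The 3 with the highest level among those that fell, Slc25a5, Slc25a3 and Slc25a39, fell by 0.53, 0.42 and 0.55 on the log2 scale. In bulk tissue, fewer cells of a type and less RNA per cell cannot be told apart, and the part of the tubule and neutrophil markers above in these differences was not tested.

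The share of members that changed was close to that of all genes. Members called in either direction were 54.8% of the 42, where 50.5% of all genes tested were called. By direction, 19.0% of members were higher and 35.7% lower, against 25.7% and 24.8% of all genes. At least 2-fold higher were 9.52% of members and 8.24% of all genes, and at least 2-fold lower were 2.38% of members and 9.62% of all genes. LPS and Control values in CPM lay wholly apart for 28 members (66.7%) and for 60.2% of the genes tested. The median log2 fold change was -0.14 over the members and 0.01 over all genes tested. Without LPS replicate 2, 8 members were higher and 14 lower, and the log2 fold changes of the 5 members past 2-fold were 2.22 (Slc25a24), 2.21 (Slc25a22), 2.02 (Slc25a25), 1.38 (Slc25a20) and -1.295 (Slc25a21).

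**Figure D1:**
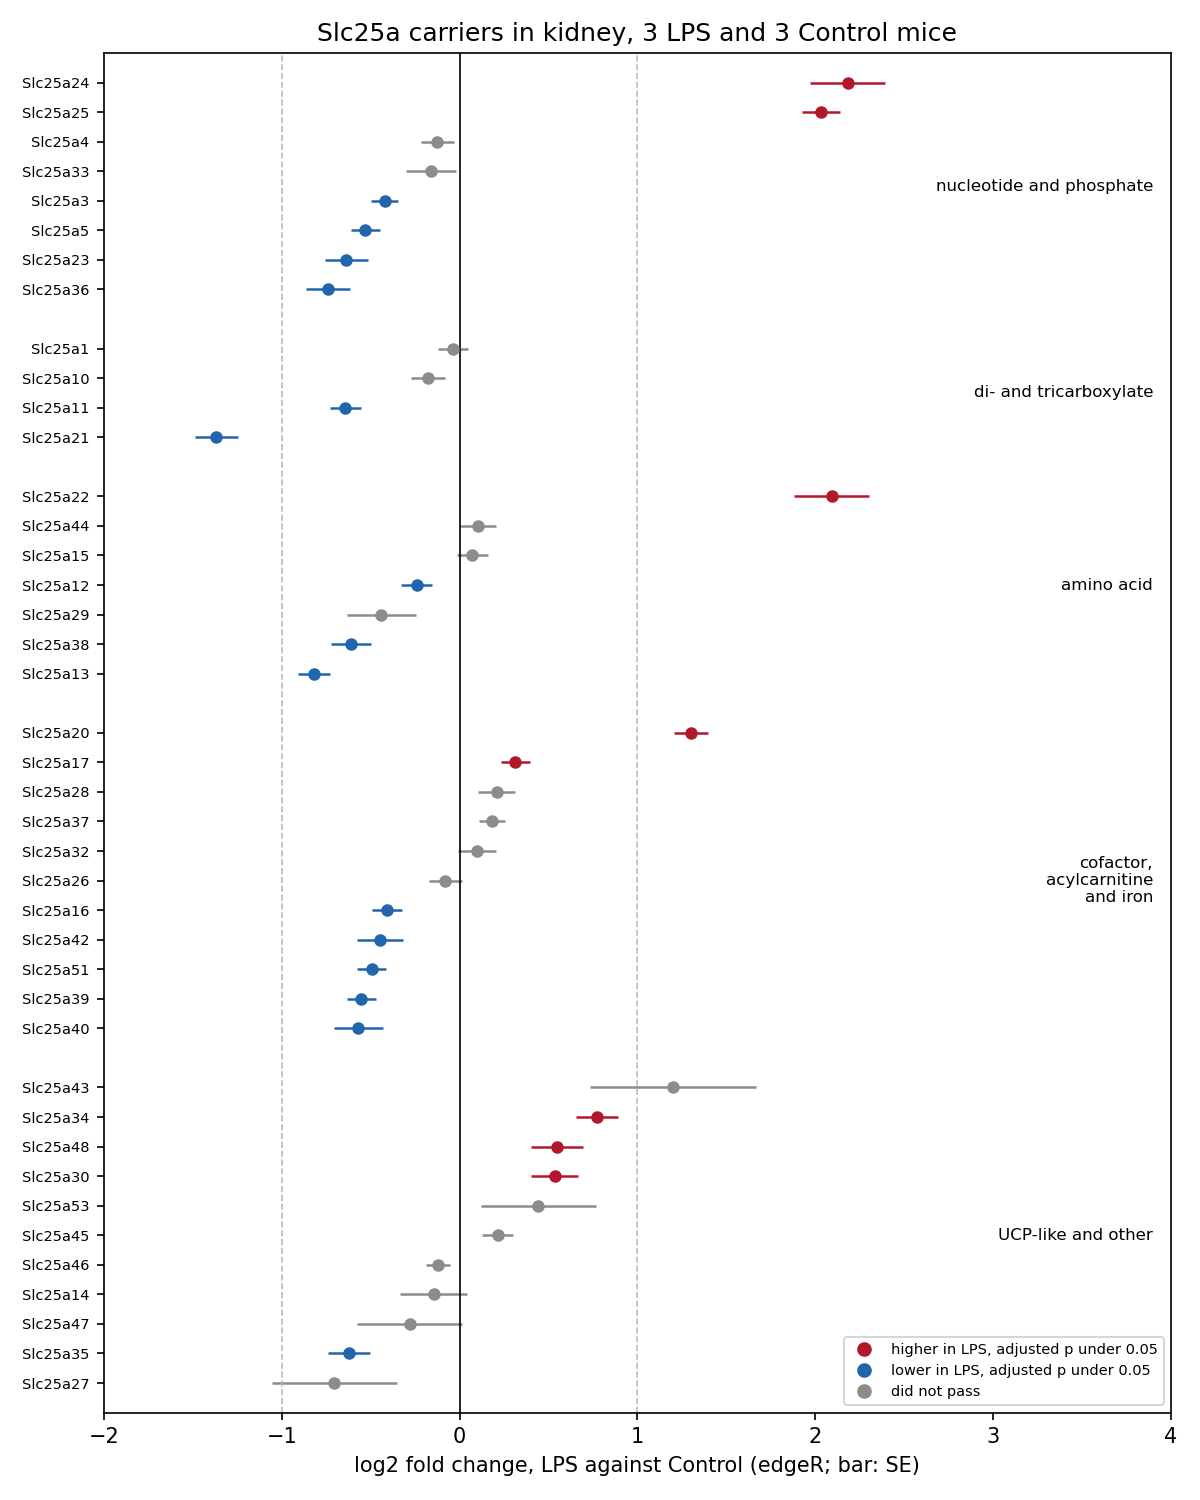
Log2 fold change of tested carriers (x axis, LPS against Control, 3 mice per group; bars are SE), grouped by what they carry, with dashed lines at 2-fold. Slc25a24, Slc25a22, Slc25a25 and Slc25a20 lie to the right of the upper line, as does Slc25a43, which did not pass, and Slc25a21 lies to the left of the lower line, while most members that fell lie between 0 and the lower line.

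Promoter windows of the carriers were read for short motifs of factors known to act on mitochondrial or inflammatory genes. RefSeq windows of mouse build GRCm38.p6, from 250 bases before to 50 bases after a gene's start, were found for 35 of the 45 members (45 windows, since some genes have several starts). The motifs, searched on both strands with N for any base, were CRE (TGACGTCA), an ERR half-site (AAGGTCA), NRF1 (GCATGCGC), ETS (CCGGAAGT), STAT (TTCCNGGAA), NF-kB (GGGANTTTC), C/EBP (TTGCGCAA) and E-box (CACGTG). CRE was found in the windows of 2 members, which changed in opposite directions: Slc25a25, which rose, and Slc25a36, a pyrimidine nucleotide carrier that fell. It occurs in 1.79% of all 32851 windows. The ERR half-site was found in 1 member (4.72% of all windows), NRF1 in 1, the untested Slc25a31 (2.71%), and ETS in 1 (3.89%). The E-box was found in 7 members and 8 of the 45 windows, against 7.15% of all windows. Its members were Slc25a13 and Slc25a36, which fell, Slc25a1, Slc25a14, Slc25a15 and Slc25a33, which did not pass, and the untested Slc25a31. STAT, NF-kB and C/EBP letters were in none of the 45 windows and in 1.15%, 1.11% and 0.183% of all windows, and no match overlapped another. These are matches of letters in these windows and do not show binding.

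The 4 windows printed here belong to members past the test that hold a CRE, ERR or ETS motif, shown 5′ to 3′ on the gene's own strand with that match in capitals. The E-box of the Slc25a36 window, at bases 64 to 69, is left in lower case. They lie at chr9:108661886-108662185 (plus strand, ETS) for Slc25a20, chr2:32424017-32424316 (minus strand, CRE) for Slc25a25, chr4:141623785-141624084 (minus strand, ERR half-site read on the other strand) for Slc25a34 and chr9:97110992-97111291 (minus strand, CRE) for Slc25a36. The match begins 150 bases before the start of Slc25a25 and 161 bases before that of Slc25a36. The Slc25a25 window is 1 of 3 listed for that gene, and the counts do not tell which start was used.
Slc25a20: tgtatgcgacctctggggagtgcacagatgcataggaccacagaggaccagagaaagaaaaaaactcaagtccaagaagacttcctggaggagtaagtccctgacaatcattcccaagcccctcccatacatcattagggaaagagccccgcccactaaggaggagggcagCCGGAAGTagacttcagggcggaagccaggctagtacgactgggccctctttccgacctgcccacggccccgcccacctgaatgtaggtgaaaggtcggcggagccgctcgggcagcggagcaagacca
Slc25a25: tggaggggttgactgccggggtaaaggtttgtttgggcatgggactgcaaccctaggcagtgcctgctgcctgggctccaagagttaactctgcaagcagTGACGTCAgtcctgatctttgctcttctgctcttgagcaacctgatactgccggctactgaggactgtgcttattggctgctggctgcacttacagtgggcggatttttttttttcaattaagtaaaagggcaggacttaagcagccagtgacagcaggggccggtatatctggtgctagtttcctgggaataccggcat
Slc25a34: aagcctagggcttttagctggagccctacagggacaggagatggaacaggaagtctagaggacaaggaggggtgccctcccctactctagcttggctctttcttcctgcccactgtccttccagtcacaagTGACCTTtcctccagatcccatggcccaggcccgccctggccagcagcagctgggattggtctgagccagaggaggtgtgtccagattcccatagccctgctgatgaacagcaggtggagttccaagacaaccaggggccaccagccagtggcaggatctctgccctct
Slc25a36: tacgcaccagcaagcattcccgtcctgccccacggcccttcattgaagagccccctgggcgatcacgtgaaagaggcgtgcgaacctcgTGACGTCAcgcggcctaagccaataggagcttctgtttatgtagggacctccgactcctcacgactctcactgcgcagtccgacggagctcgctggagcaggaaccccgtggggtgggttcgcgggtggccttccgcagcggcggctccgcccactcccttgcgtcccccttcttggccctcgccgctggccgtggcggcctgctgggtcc

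The highest carrier transcripts were those that feed ATP synthase with ADP and phosphate, and of these Slc25a5 and Slc25a3 fell and Slc25a4 did not pass. Slc25a5, the ADP/ATP carrier also called ANT2, had the highest level in each library. It stood at 569, 594 and 619.5 FPKM in LPS replicates 1, 2 and 3 and at 843, 904 and 844 FPKM in Control replicates 1, 2 and 3. All LPS libraries lay below all Control libraries, with a log2 fold change of -0.53 ± 0.08 (adjusted p = 0.000597, edgeR). A pseudogene copy, Slc25a5-ps, is annotated in RefSeq, so some reads of Slc25a5 can be shared with such copies.

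Slc25a3, the phosphate carrier that supplies ATP synthase, stood at 390.4, 388 and 402 FPKM in LPS and at 513, 550.2 and 527 FPKM in Control replicates 1, 2 and 3. It fell by 0.42 on the log2 scale in groups that did not overlap. Slc25a4, the heart and muscle isoform of the ADP/ATP carrier (ANT1), stood at 244, 193 and 221 FPKM in LPS and at 237, 247 and 238 FPKM in Control kidneys. LPS replicate 1 lay within the Control range and the gene did not pass (log2 fold change -0.13 ± 0.09, adjusted p = 0.293, edgeR). The third isoform, Slc25a31 (ANT4), known from testis, had 1 count over the 3 LPS libraries and 1 over the 3 Control libraries.

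Slc25a5 made up less of the summed FPKM of the 3 ADP/ATP carriers in LPS kidneys, at 70.0%, 75.5% and 73.7% in replicates 1, 2 and 3 against 78.0%, 78.5% and 78.0% in Control kidneys. The ranges did not overlap, and no test was made of this share. The summed level of the 3 carriers was 813 ± 27.2 FPKM in LPS and 1105 ± 40.4 FPKM in Control kidneys (SD, n = 3).

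The ATP-Mg/phosphate carriers, which adjust the adenine nucleotide pool of the matrix and are regulated by calcium, changed in opposite directions. Slc25a25 stood at 54.8, 54.2 and 49.5 FPKM in LPS and at 15.3, 11.9 and 11.8 FPKM in Control replicates 1, 2 and 3. Each LPS library held more than 3 times the level of each Control library, and the log2 fold change was 2.03 ± 0.11 (adjusted p = 1.15e-06, edgeR). Its annotated exons share 379 bases with Naif1 on the other strand, a gene at 276 counts over the LPS and 257 over the Control libraries. Slc25a24 stood at 9.71, 12.2 and 16.7 FPKM in LPS and at 3.51, 2.39 and 2.70 FPKM in Control kidneys. The LPS libraries were spread more widely than for Slc25a25, with LPS replicate 1 lowest, and the log2 fold change was 2.18 ± 0.21 (adjusted p = 4.22e-05, edgeR).

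Slc25a23, the third carrier of this kind (Slc25a41 was not analysed here), fell. It stood at 29.2, 21.8 and 21.6 FPKM in LPS and at 35.6, 38.3 and 39.5 FPKM in Control kidneys, a log2 fold change of -0.64 ± 0.12. LPS replicate 1 was the nearest to the Control libraries but lay below all of them. In Control kidneys Slc25a23 made up 65.4% to 73.1% of the summed FPKM of the 3 carriers, and in LPS kidneys 24.6% to 31.1%. Slc25a25 made up 21.9% to 28.1% in Control and 56.3% to 61.5% in LPS kidneys, so the most abundant transcript of the group was a different one in each condition, in all 3 libraries. The summed level was 53.7 ± 1.00 FPKM in Control and 89.9 ± 3.31 FPKM in LPS kidneys (SD, n = 3). No test was made of the shares.

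**Figure D2:**
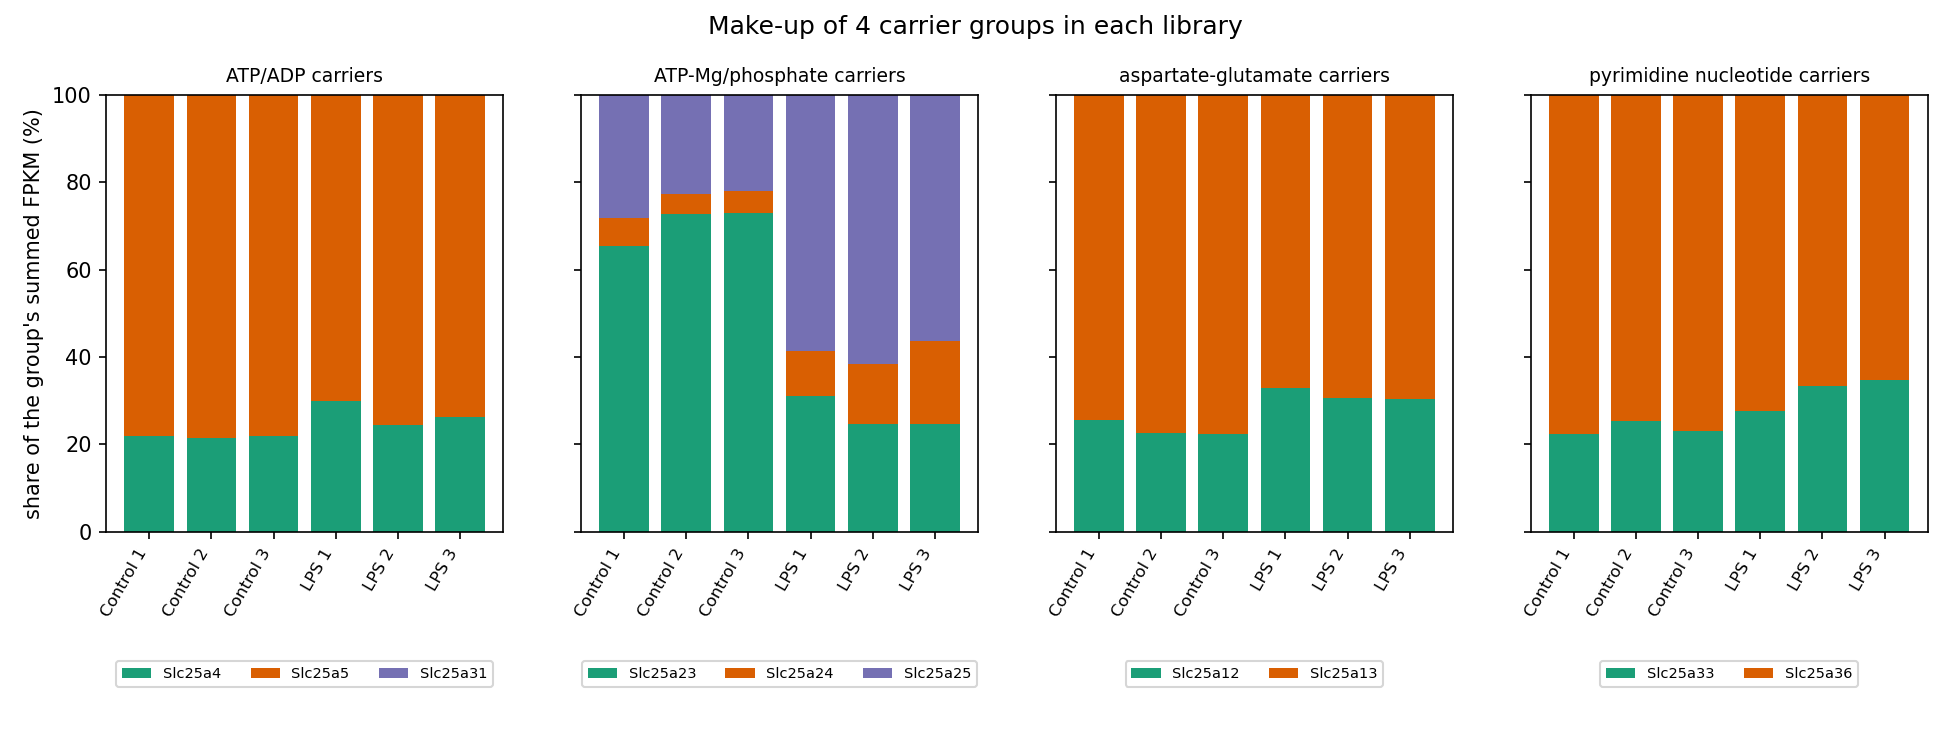
Share of each carrier in the summed FPKM of its substrate group (y axis, percent), 1 bar per library, for 4 groups. The ATP-Mg/phosphate group passes from mostly Slc25a23 in Control to mostly Slc25a25 in LPS libraries, and the other 3 groups keep the same leading carrier with a smaller share of it in LPS libraries.

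Of the pyrimidine nucleotide carriers, which bring nucleotides to mitochondrial DNA and RNA synthesis, Slc25a36 fell by 0.74 on the log2 scale, from 19.8 ± 1.7 to 11.8 ± 1.9 FPKM (SD, n = 3), and Slc25a33 did not pass, at 5.16 to 6.93 FPKM in Control and 5.36 to 5.69 FPKM in LPS kidneys. Slc25a36 made up 65.2% to 72.3% of their summed FPKM in LPS and 74.6% to 77.6% in Control kidneys.

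Among carriers of di- and tricarboxylates, 2 fell and none rose. Slc25a21, which takes part in the breakdown of lysine and tryptophan, stood at 3.51, 3.33 and 4.27 FPKM in LPS and at 10.2, 9.04 and 9.72 FPKM in Control replicates 1, 2 and 3. All LPS libraries lay at under 50% of every Control library, with a log2 fold change of -1.37 ± 0.12 (adjusted p = 2.29e-05, edgeR). Slc25a11, the oxoglutarate-malate carrier, fell from between 87.8 and 100.3 FPKM to between 58.1 and 60.9 FPKM, and its log2 fold change was -0.64 ± 0.09. Its exons share 189 annotated bases with Rnf167 on the other strand, a gene at 4543 counts over the LPS and 7600 over the Control libraries.

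The other 2 carriers of this kind did not pass. Slc25a1, which exports citrate, stood at 72.9 to 78.1 FPKM in LPS and 73.6 to 81.8 FPKM in Control kidneys (log2 fold change -0.04 ± 0.08). Slc25a10, which exchanges malate or succinate for phosphate, was the fifth highest member, at 97.8, 91.0 and 100.9 FPKM in LPS and 102, 121.6 and 106 FPKM in Control kidneys (log2 fold change -0.18 ± 0.10, adjusted p = 0.147, edgeR). On the CPM scale its groups overlapped.

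Both aspartate-glutamate carriers of the malate-aspartate shuttle, which moves reducing equivalents into the matrix, fell. Slc25a13 (citrin) fell from 34.7, 39.6 and 39.7 FPKM in Control to between 20.7 and 22.6 FPKM in LPS kidneys, a log2 fold change of -0.82 ± 0.09. Slc25a12 (aralar) fell by 0.24, from between 11.5 and 12.0 FPKM to between 9.15 and 11.1 FPKM (adjusted p = 0.0444, edgeR). That call was lost when Control replicate 1 (adjusted p = 0.0847), 2 (0.107) or 3 (0.0909) or LPS replicate 2 (0.154) or 3 (0.112) was left out, and lay between 0.00538 and 0.154 in the alternatives tried. Slc25a13 made up 67.0% to 69.5% of the summed FPKM of the pair in LPS and 74.4% to 77.5% in Control kidneys. These shares rest on lengths of 4509 bases for Slc25a13 and 8638 for Slc25a12. Mean CPM of Slc25a13 and Slc25a12 was 96.9 and 85.1 in LPS and 171.0 and 100.5 in Control kidneys. The difference between the changes of the pair was not tested.

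The glutamate carrier Slc25a22, which brings glutamate and a proton into the matrix, was 1 of the 4 members with the largest increase. It stood at 32.3, 19.1 and 17.4 FPKM in LPS and at 5.39, 5.07 and 5.77 FPKM in Control replicates 1, 2 and 3. LPS replicate 1 was above the other LPS libraries, all LPS libraries held more than 3 times the level of every Control library, and the log2 fold change was 2.09 ± 0.21 (adjusted p = 5.07e-05, edgeR). The second glutamate carrier, Slc25a18, had 3, 0 and 2 counts in the LPS libraries and 0 in each Control library, too few to test.

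Carriers of ornithine, other basic amino acids, glycine and branched-chain amino acids held 1 that fell. Slc25a38, a glycine carrier needed for haem synthesis, fell by 0.61 on the log2 scale, from between 6.91 and 8.14 FPKM to between 4.40 and 5.41 FPKM. Of 7 red cell markers, 6 were tested and all 6 were lower in LPS kidneys, at 73.9 to 152 summed CPM against 319 to 404 CPM. Among them is Slc4a1, which is also on the list of distal and collecting duct markers. The part of these markers in the fall of Slc25a38 was not tested. Slc25a15, the ornithine carrier, stood at 50.6 to 58.1 FPKM in LPS and 50.4 to 51.7 FPKM in Control kidneys and did not pass. Slc25a44, a carrier of branched-chain amino acids, did not pass either (log2 fold change 0.10 ± 0.10). Slc25a29, a carrier of basic amino acids, had a log2 fold change of -0.44 ± 0.19 (adjusted p = 0.0868, edgeR) and passed without LPS replicate 2 (-0.65, adjusted p = 0.0214), in a range of 0.0214 to 0.208 over the alternatives. Slc25a2, an ornithine carrier, had 8 counts over the LPS and 12 over the Control libraries.

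Slc25a20, which passes acylcarnitines into the matrix for fatty acid oxidation, stood at 103, 81.6 and 89.4 FPKM in LPS and at 38.7, 35.2 and 38.1 FPKM in Control replicates 1, 2 and 3. All LPS libraries held more than 2 times the level of every Control library. Its log2 fold change was 1.30 ± 0.10 (adjusted p = 8.16e-06, edgeR), and among the 4 members that rose by at least 2-fold it had the highest level in both groups.

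**Figure D3:**
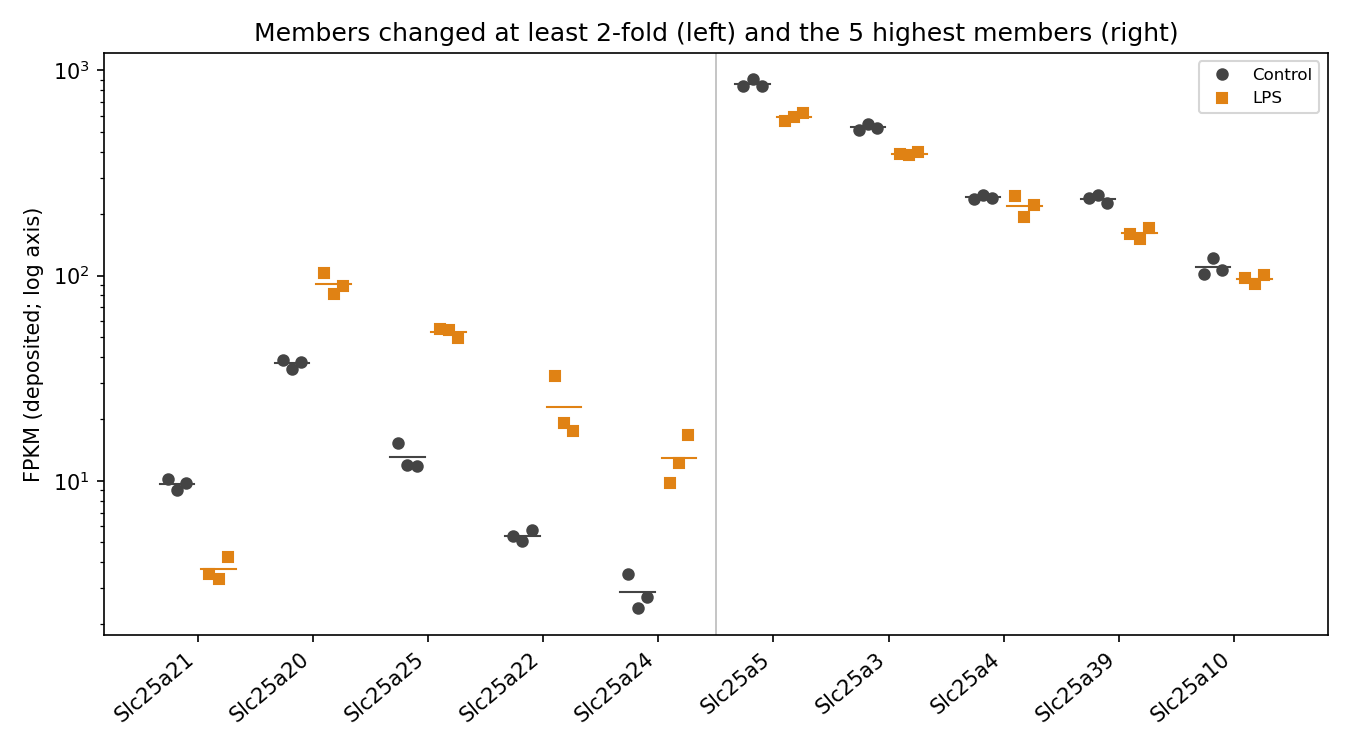
Deposited FPKM (y axis, log scale) in each of 3 Control and 3 LPS libraries for the 5 members changed at least 2-fold and the 5 members with the highest level; short lines are means. The groups lie apart for the 5 members on the left and for Slc25a5, Slc25a3 and Slc25a39 on the right, and Slc25a4 overlaps between the groups. Slc25a10, which did not pass, also lies narrowly apart in FPKM, at most 100.9 in LPS and at least 102 in Control libraries.

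Among carriers of cofactors, 5 fell and, beside Slc25a20, 1 rose. Slc25a39, which imports glutathione, was the fourth highest member and stood at 160, 151 and 171 FPKM in LPS and at 238, 247.0 and 226 FPKM in Control replicates 1, 2 and 3. Its groups did not overlap, with a log2 fold change of -0.55 ± 0.08. Its close relative Slc25a40 fell by 0.57, at a far lower level of 0.394 to 0.495 FPKM in LPS and 0.581 to 0.705 FPKM in Control kidneys. Slc25a51, the NAD carrier, fell by 0.49, from between 50.9 and 55.7 FPKM to between 35.2 and 39.5 FPKM.

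The transcripts of 2 carriers linked to coenzyme A also fell. Slc25a16 fell by 0.41, from between 52.7 and 59.7 FPKM to between 41.4 and 43.2 FPKM, and Slc25a42 by 0.45, from between 30.9 and 35.7 FPKM to between 21.05 and 30.4 FPKM. The call of Slc25a42 (adjusted p = 0.0175, edgeR) ended without LPS replicate 2 (0.0559), LPS replicate 3 (0.0546) or Control replicate 3 (0.0579), in a range of 0.000664 to 0.0579 over the alternatives. Slc25a17, a carrier of the peroxisomal membrane for coenzyme A and related cofactors, rose by a log2 fold change of 0.31 ± 0.08, from between 65.3 and 69.6 FPKM to between 79.1 and 89.3 FPKM.

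The remaining cofactor carriers and both mitoferrins, which bring iron to the matrix, did not pass. The carriers of S-adenosylmethionine (Slc25a26) and folate or FAD (Slc25a32) had log2 fold changes of -0.08 and 0.10. Slc25a28 (mitoferrin 2) stood at 24.2 to 28.9 FPKM in LPS and 20.2 to 24.8 FPKM in Control kidneys. Slc25a37 (mitoferrin 1), known for its role in red cell precursors, stood at 8.32 to 8.87 FPKM in LPS and 7.15 to 7.90 FPKM in Control kidneys, with a log2 fold change of 0.18 ± 0.07 (adjusted p = 0.0655, edgeR).

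Among members with uncoupling protein-like sequence and those of other or unsettled substrate, 3 rose and 1 fell. Slc25a34 rose from 16.0, 18.9 and 19.5 FPKM in Control to 27.7, 29.6 and 35.0 FPKM in LPS replicates 1, 2 and 3 (log2 fold change 0.77 ± 0.12). Slc25a48, a choline carrier, rose by 0.55 ± 0.14 and Slc25a30, the kidney mitochondrial carrier protein 1, by 0.53 ± 0.13. The groups did not overlap for any of these 3. Slc25a35, a close relative of Slc25a34, fell by 0.62, from between 10.6 and 12.3 FPKM to between 6.31 and 8.34 FPKM. Its annotated exons share 1151 bases with Rangrf on the other strand, a gene at 699 counts over the LPS and 760 over the Control libraries, and without strand information reads of the pair cannot be told apart.

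The other 7 members of this kind did not pass. Slc25a45 and Slc25a46, the latter a protein of the outer membrane with a part in mitochondrial shape, had log2 fold changes of 0.21 ± 0.09 and -0.12 ± 0.07. Slc25a14, Slc25a27, Slc25a47 and Slc25a53 stood at no more than 3.01 FPKM in any library. For Slc25a43, 74 counts were summed over the LPS and 30 over the Control libraries, and the log2 fold change was 1.199 ± 0.466 (adjusted p = 0.0582, edgeR). It passed without Control replicate 1 (1.72, adjusted p = 0.0229), and its adjusted p ranged from 0.0229 to 0.180 over the alternatives.

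Summed over all 45 members, the family took 0.525%, 0.486% and 0.5155% of the counts in LPS replicates 1, 2 and 3. In Control replicates 1, 2 and 3 it took 0.581%, 0.616% and 0.590%. The summed FPKM of all 45 members was 2337, 2201 and 2338 in LPS and 2702, 2868 and 2738 in Control replicates 1, 2 and 3, and the groups did not overlap. The 5 highest members made up 62.5% to 64.8% of that sum in LPS and 70.9% to 72.2% in Control kidneys. The totals thus follow mostly these 5 and do not show a fall in the rest of the family. Of 21 tested members at or above the members' median of 16.2 FPKM, 5 rose and 9 fell, where 35.6% of all genes at such levels rose and 29.5% fell. Of the 21 members below it, 3 rose and 6 fell, where 21.9% of all genes rose and 23.0% fell.

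**Figure D4:**
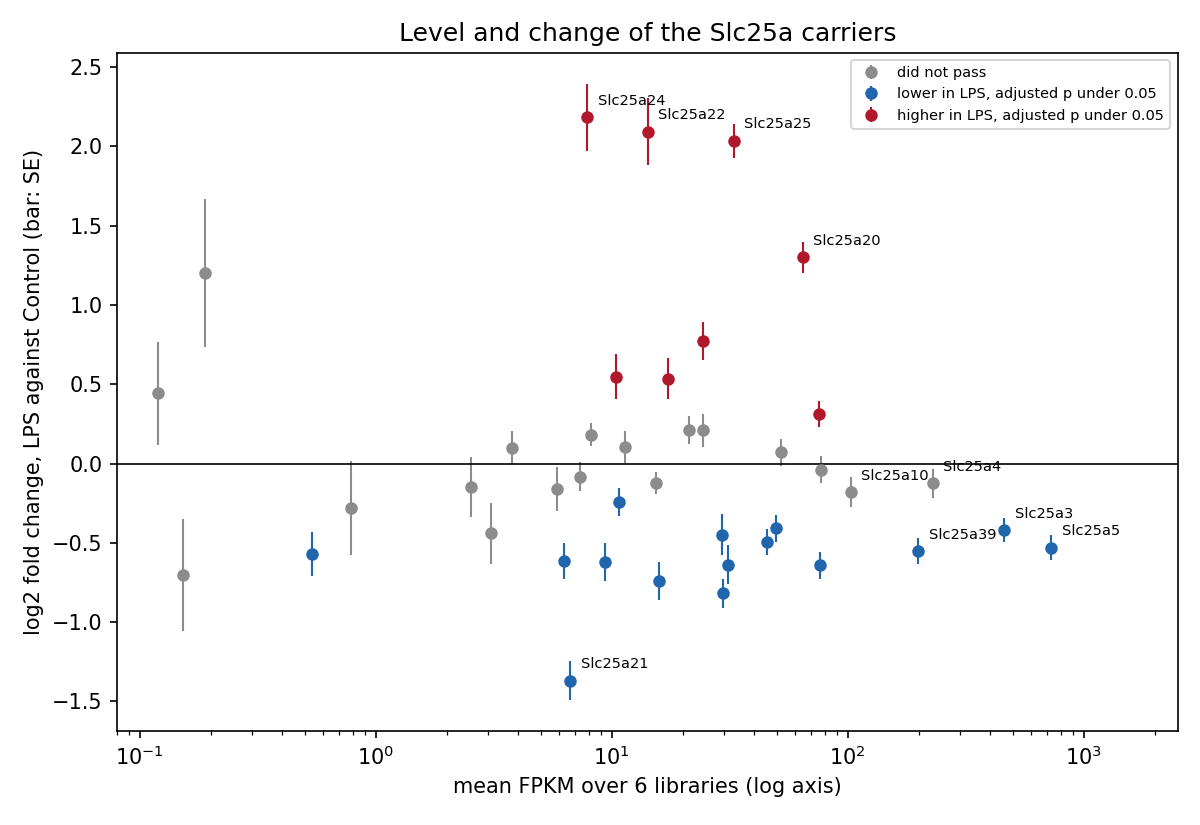
Mean FPKM over the 6 libraries (x axis, log scale) against the log2 fold change of LPS against Control (y axis; bars are SE) for tested members. The 5 members with the highest level lie below 0, of which Slc25a4 and Slc25a10 did not pass, and the 4 largest increases past the test lie between 7.87 and 64.3 FPKM.

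Members varied among LPS libraries. LPS replicate 1 was the highest of the 3 for 21 of 42 members, LPS replicate 3 for 18 and LPS replicate 2 for 3, against 35.9%, 38.2% and 25.9% of all genes tested. Slc25a22, Slc25a23, Slc25a36 and Slc25a42 were highest in LPS replicate 1, where Slc25a24 was lowest.

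Genes around the carriers were taken from lists of the same proteins' partners. The lists are short and none was tested as a set. Of all genes tested, 25.7% were higher and 24.8% lower. The uncoupling proteins and outer membrane relatives belong to the same protein family under other symbols, and of 5 tested 2 rose and 2 fell. Ucp2 rose from 163, 136 and 122 CPM in Control to 1057, 875 and 918 CPM in LPS replicates 1, 2 and 3, a log2 fold change of 2.76 ± 0.13 (adjusted p = 5.28e-07, edgeR). Ucp3 rose by 1.67 ± 0.60 (adjusted p = 0.0430, edgeR), a call lost when Control replicate 1 (0.0712) or 2 (0.131) or LPS replicate 1 (0.114) or 2 (0.0722) was left out. Mtch1 and Mtch2 fell by 0.26 and 0.22, calls lost at an adjusted p of 0.143 and 0.098 without LPS replicate 2, 0.157 and 0.122 without Control replicate 2, 0.0537 and 0.0752 without LPS replicate 1, and 0.0709 and 0.0837 without Control replicate 3, for Mtch2 also without Control replicate 1 (0.0581), and for both with no filter on low counts (0.0518 and 0.0529). Ucp1, the uncoupling protein of brown fat, summed to 42 counts over the LPS and 446 over the Control libraries. By replicate 1, 2 and 3 it had 1, 41 and 0 counts in LPS and 0, 173 and 273 in Control kidneys. Ucp1 did not pass (adjusted p = 0.0723, edgeR). It passed without LPS replicate 2 (0.0169) and without Control replicate 1 (0.0101), the Control library with 0 counts. The 4 brown fat markers, Ucp1 among them, summed to 5.96 to 16.3 CPM in LPS kidneys. In Control replicates 1, 2 and 3 they summed to 10.3, 62.3 and 84.7 CPM, so Control replicate 1 lay within the LPS range. The part of these markers in the carriers' values was not tested.

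Of the outer membrane channels and the pyruvate carrier, 3 of 5 fell and none rose, among them both subunits of the pyruvate carrier, Mpc2 by 1.05 and Mpc1 by 0.80 on the log2 scale, and the channel Vdac1 by 0.72. Of 10 genes of the import route of carriers, 2 rose and none fell, the small chaperones Timm10 (0.63 ± 0.12) and Timm10b (0.47 ± 0.10). Timm8b (-0.27, adjusted p = 0.0553, edgeR) passed as lower without LPS replicate 3 (0.0131) or Control replicate 3 (0.0425). It also passed with a filter at a mean CPM of 1 (0.0477). Agk (-0.31, adjusted p = 0.0678, edgeR) passed as lower without Control replicate 1 (0.0452) and with limma on log2(FPKM + 1) (0.0443).

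Enzymes that use the carried substrates changed in both directions. Of 4 enzymes of the malate-aspartate shuttle 2 rose and 2 fell, with the cytosolic malate dehydrogenase Mdh1 at -1.34 ± 0.09 and the cytosolic aspartate transaminase Got1 at 0.62 ± 0.10. Their mitochondrial forms Mdh2 and Got2 changed by -0.30 and 0.42. Of 4 genes of citrate export and use 1 rose, the ATP citrate lyase Acly (0.825 ± 0.089), and 1 fell, the malic enzyme Me1 (-1.16 ± 0.08). Of 5 genes of the carnitine shuttle 2 rose and 1 fell. Cpt2, which acts in the matrix after Slc25a20, rose by 0.56 ± 0.07. The plasma membrane carnitine transporter Slc22a5 fell by 0.29 (adjusted p = 0.0343, edgeR), a call lost when Control replicate 2 (0.0863) or 3 (0.124) or LPS replicate 2 (0.111) or 3 (0.104) was left out. The acetyltransferase Crat rose by 0.29, a call lost without any 1 of the Control replicates (0.0561 to 0.0687).

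Among ornithine and arginine enzymes 2 of 4 tested rose and 2 fell, with the mitochondrial arginase Arg2 at 4.63 ± 0.18 and the argininosuccinate synthase Ass1 at -3.27 ± 0.17. Asl, the next enzyme after Ass1, fell by 1.29, and the ornithine aminotransferase Oat rose by 0.225, a call just under the threshold (adjusted p = 0.0498, edgeR) that was held with DESeq2, with limma-voom and without LPS replicate 3 and lost under every other alternative. Of 8 genes of iron-sulfur clusters and haem 1 rose, Alas1, the first enzyme of haem synthesis (1.72 ± 0.18), and 6 fell, with the cysteine desulfurase Nfs1 at -0.77 ± 0.07. Of 7 regulators of mitochondrial genes none rose and 3 fell, with the oestrogen-related receptor Esrra at -0.65 ± 0.09 and Tfam, which packages mitochondrial DNA, at -0.38 ± 0.07. Gabpa fell by 0.29, a call lost without LPS replicate 1 (0.0603) or 2 (0.0668) or Control replicate 2 (0.0725) or 3 (0.08). Ppargc1a did not pass (-0.15 ± 0.12) but passed without LPS replicate 1 (-0.30, adjusted p = 0.029, edgeR). Over all 9 lists 12 of 52 tested genes rose and 20 fell, where 25.7% of all genes tested rose and 24.8% fell. The median log2 fold change was -0.15 over the lists and 0.01 over all genes tested, and 13 of the listed genes fell without Control replicate 2.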

How the data were processed

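For 6 kidney libraries the authors deposited raw counts and FPKM by gene symbol. Per the submitters' processing notes, SAMtools, HISAT2, HTSeq, R 3.2.0 and DESeq2 were used, with no role or order stated. Genome build, annotation and strand setting: not given in the sources used here. Each of the 106080 deposited FPKM values follows from the gene's count, 1 whole-number length per gene and the summed counts of its library (relative tolerance 1e-06).

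Groups and replicate numbers came from sample titles. Counts were filtered with filterByExpr (minimum count 10, minimum total 15), scaled by TMM and compared between the groups by edgeR 4.0.16 (quasi-likelihood, two-sided; R 4.3.3) over 14219 genes. The SE was taken as the log2 fold change over the root of the F statistic. The code was tested on simulated data. The design text counts 3 mice per group, and p-values measure the spread among them. Replicates of a group differed by more than sampling noise (chi-square of at least 11.1 per degree of freedom).

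Members and lists were chosen with earlier results of these data known. Values in each library were given for members past the threshold with an at least 2-fold change and for the 5 with the highest mean FPKM, and for others where a substrate group needed its partner. Of the related genes, the 2 with the largest change past the threshold in each list were named. Mtch1, Mtch2, Ucp1, Vdac1, Timm8b, Agk, Mdh2, Got2, Crat, Asl, Oat, Gabpa and Ppargc1a were named after their values were seen. Substrate groups and motifs were set by hand. Gene overlaps came from GENCODE M21 and promoters from RefSeq, both on GRCm38, which may not be the authors' build. Alternatives were other scalings and filters, DESeq2 1.42.0, limma 3.58.1 (voom, or log2(FPKM + 1)), a replicate block and leaving out each library. The values of 1 of the 42 tested members are not reported here: it is included in the counts and left out of the figures, and it is not one of the members named in the text.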

Additional observations from a re-analysis of the deposited data

How the results depend on the processing

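The counts of changed carriers, 8 higher and 15 lower, were 8 and 14 to 15 under each of the 8 other scalings, filters, tools and designs, and 8 to 9 higher and 13 to 15 lower with 1 library left out. No member past the test changed direction, and 38 of 42 members kept their side of the threshold under all 14 alternatives that gave a value. The exceptions were Slc25a12, Slc25a29, Slc25a42 and Slc25a43. Slc25a12 also lost its call with no filter on low counts (adjusted p = 0.0583), with the replicate block (0.0557) and with limma on log2(FPKM + 1) (0.0538), where Slc25a29 passed (0.0387). Over all genes, 3077 to 3666 were higher and 3010 to 3490 lower with 1 library left out, and 3414 to 3724 and 3331 to 3589 under the other alternatives.

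Of the related genes, 9 to 12 were higher and 13 to 20 lower with 1 library left out, the fewest lower without Control replicate 2. The cause was not tested. Beyond the number, the sample titles do not pair same-numbered libraries. Correlations of their deviations from the group means were 0.0356, -0.0663 and -0.00832. Whether such libraries shared a batch was not tested. With the replicate block, 8 members were higher and 14 lower, 3414 and 3331 of all genes, and 11 and 17 of the related genes. Of these, Mtch1 (0.0701), Mtch2 (0.0693), Slc22a5 (0.0544) and Oat (0.085) were among those that lost their calls with the block, and Ucp1 passed (0.0143). LPS replicate 3 correlated best with Control replicate 2 (0.145). The 5 tested members with a mean under 1 FPKM had smaller values on the log2(FPKM + 1) scale, where the pseudocount exceeds their level: -0.20 for Slc25a40, which kept its call, 0.18 for Slc25a43, -0.09 for Slc25a27, -0.13 for Slc25a47 and 0.046 for Slc25a53.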
